A study of Mus musculus with 12 samples.

Results

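The regulators described here are 10 genes that set the capacity of a cell to burn fuel in its mitochondria. They are the peroxisome proliferator-activated receptors Ppara, Ppard and Pparg, their dimer partner Rxra, the coactivators Ppargc1a and Ppargc1b, the estrogen-related receptors Esrra, Esrrb and Esrrg, and the nuclear respiratory factor Nrf1. A probe was taken as a member when the platform annotation named one of these symbols, in any case of letters. This gave 14 probes for the 10 genes, among 20377 named probes of 17742 genes and 26423 probes in all. Of the genes, 7 had a single probe, and 3 (Ppara, Rxra and Nrf1) had more, the brightest of which is called probe 1.

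Each sample was whole heart of a mouse at postnatal day 8, of the C57bl/6 X 129 hybrid background. There were 2 samples labelled Salv CKO, the Salvador mutant, and 2 labelled Control, whose genotype label is wild-type. Each was hybridised to 3 technical arrays in 1 colour, which gave 12 arrays, and the technical arrays were averaged and counted as 1 replicate. The sources used here do not give the Cre driver, the deleted part of the gene, or whether a sample was 1 heart or a pool, and the labels' source field names embryonic heart.

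The PPARs are receptors for fatty acids that bind DNA as dimers with a retinoid X receptor and switch on genes of fat uptake and oxidation. The estrogen-related receptors have no known natural steroid hormone, and drive genes of the citric acid cycle and the respiratory chain. PGC-1 alpha and beta, the products of Ppargc1a and Ppargc1b, bind to both kinds of receptor and to NRF1, which acts on nuclear genes for mitochondrial proteins and for the copying of mitochondrial DNA. In the days after birth the mouse heart turns from glucose and lactate to fatty acids, and these regulators are known for their part in that change.

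The deposited values are intensities, the brightness of a probe after background subtraction, and levels are given below as log2(intensity + 1) after quantile normalization of the arrays. A level depends on the probe's own sequence, so no probe's level is set against another's. Sav1, the targeted gene, did not follow the labels. Levels of Sav1 were 8.06 and 8.52 under the label Salv CKO, against 8.75 and 8.08 under the label Control, so every direction below is that of the labels only. Of 7 heart muscle markers measured, 6 were in the brighter 50% of probes and the probe of Ckmt2 was at background. Tnnt2, cardiac troponin T, had levels of 15.31 and 15.12 in Salv CKO and 14.99 and 15.18 in Control. A gene of another tissue varied across the labels, since the airway gene Scgb1a1 had levels of 8.14 and 4.07 in Salv CKO, against 3.68 and 11.19 in Control. As these are bulk hearts, fewer cells of a type and less RNA per cell cannot be told apart.

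Promoter windows are shown for Ppara and Esrra, because theirs were the windows of these genes that hold letters of the NRF1 motif. The windows run from 250 bases before to 50 after the gene's start, 5′ to 3′ on the gene's own strand, from RefSeq (GRCm38.p6). Capitals mark the NRF1 core GCATGCGC on either strand, its overlapping copies joined. The Ppara window lies at chr15:85735526-85735825 on the + strand and the Esrra window at chr19:6921759-6922058 on the - strand.
Ppara: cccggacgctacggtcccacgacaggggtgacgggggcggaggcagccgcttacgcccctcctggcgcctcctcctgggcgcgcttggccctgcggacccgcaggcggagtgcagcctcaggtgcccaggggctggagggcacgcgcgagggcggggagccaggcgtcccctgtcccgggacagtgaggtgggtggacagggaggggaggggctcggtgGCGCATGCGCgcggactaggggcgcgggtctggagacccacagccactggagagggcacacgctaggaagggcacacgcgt
Esrra: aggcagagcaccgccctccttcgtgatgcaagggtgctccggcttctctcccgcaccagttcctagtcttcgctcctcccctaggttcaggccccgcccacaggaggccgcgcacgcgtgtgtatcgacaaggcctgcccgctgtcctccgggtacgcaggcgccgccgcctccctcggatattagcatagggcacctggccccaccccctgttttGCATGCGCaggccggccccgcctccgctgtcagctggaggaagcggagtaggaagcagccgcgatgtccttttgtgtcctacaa

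The capitals span 10 bases in Ppara, from 31 to 22 bases before the start, and 8 bases in Esrra, from 34 to 27 bases before it. In Ppara they make up the full palindromic NRF1 element, which is the core with GC before it. Windows were used for 9 of the genes, 17 windows in all, and the core was found in 2 of them, against 2.71% of all 32851 windows. The full element was found in 1, against 0.971% of all. The ERR element TCAAGGTCA was in 0 of the 17 (0.423% of all windows), the PPAR element, 2 copies of AGGTCA in the same direction and 1 base apart, in 0 (0.0396%) and the E-box CACGTG in 0 (7.15%), on both strands. The shorter ERR core AAGGTCA, which the full ERR element contains, was in 1, a window of Rxra (4.72%). These matches describe letters and show no binding.

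When the mutant hearts were set against the wild-type hearts, 0 of the 14 probes passed an adjusted p of 0.05 (limma, smallest adjusted p = 0.998). The background was 0% of all 26423 probes, with 3.97% of probes at an unadjusted p under 0.05. At an unadjusted p under 0.05 there was 1 of the 10 genes, Esrrb, against a background of 3.32% of named genes. By the brightest probe, 4 genes were higher in Salv CKO and 6 lower, and the median difference was -0.22, beside a median of -0.021 and 46.9% positive over all named genes. The samples did not overlap between the groups for 3 of the 10 genes. Esrrb and Esrra were lower in Salv CKO (background 16.5% of named genes) and Rxra was higher (background 14.2%). That is 3 of 10 beside 30.7% of all named genes, so the count was near the background.

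**Figure D1:**
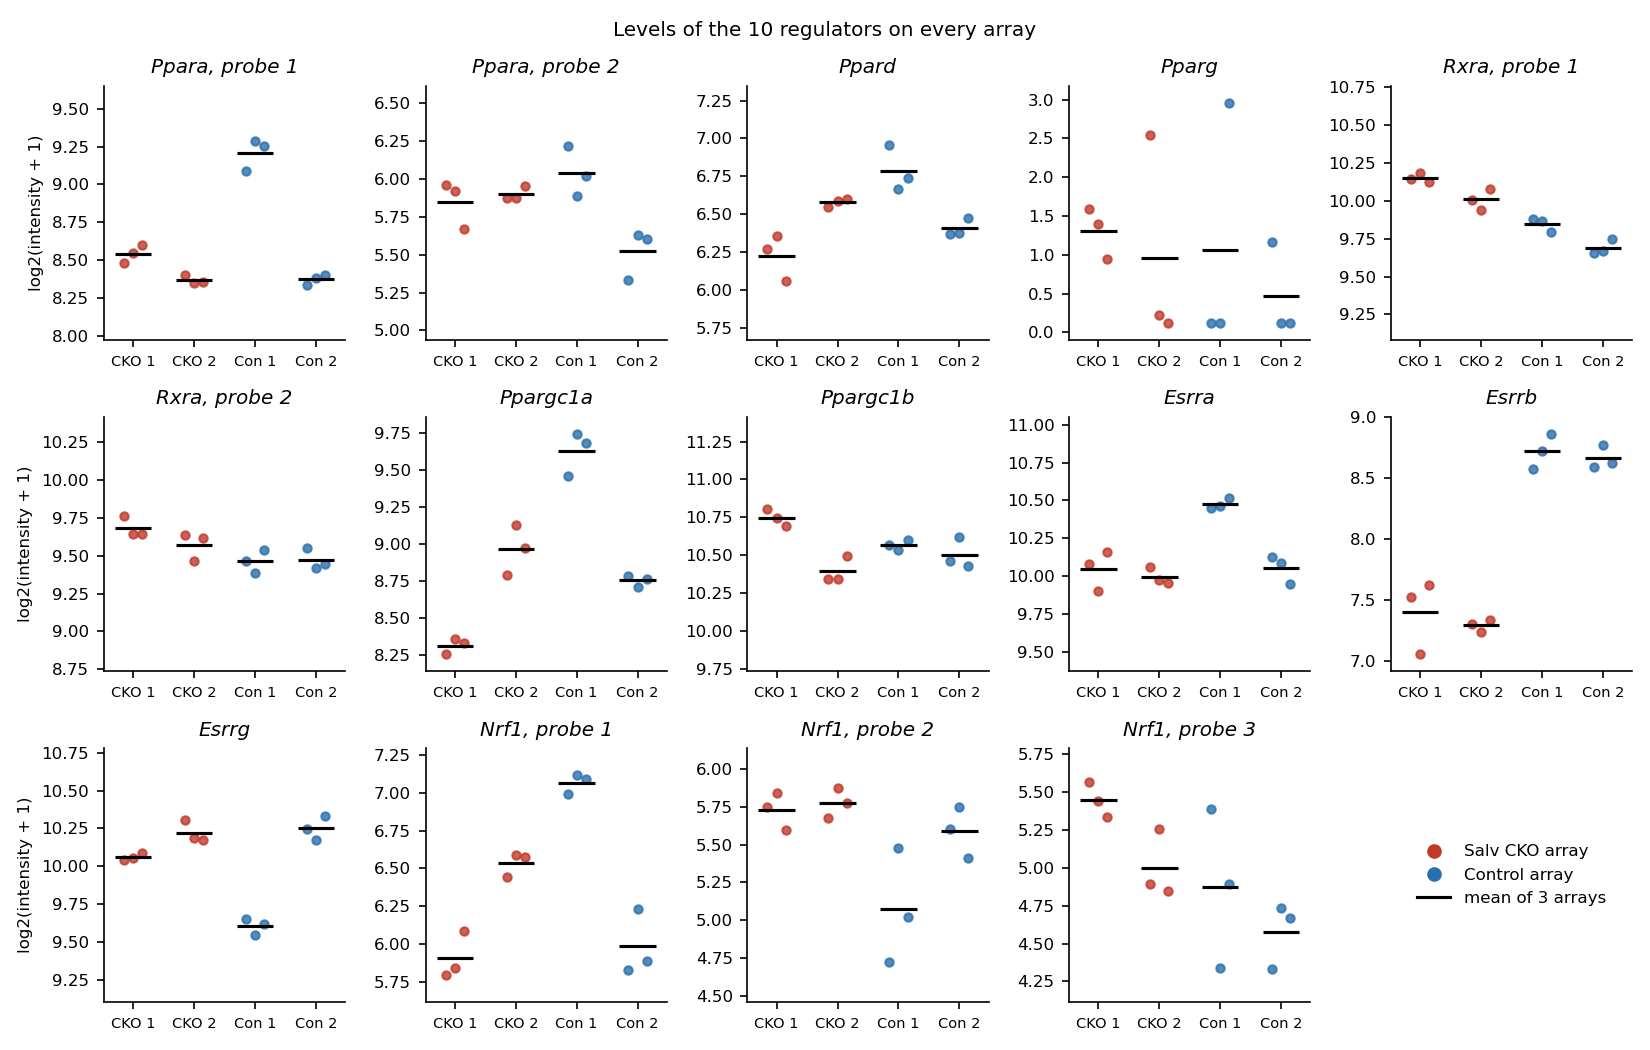
Level of each probe, log2(intensity + 1) after quantile normalization, on the 12 arrays. Points are technical arrays, with 3 per sample, and black lines are sample means. The 6 Salv CKO arrays of Esrrb lie between 7.05 and 7.63, below all 6 Control arrays, at 8.58 to 8.86, whereas Ppara probe 1, Ppargc1a, Esrra and Nrf1 probe 1 stand highest in Control 1.

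Esrrb, the estrogen-related receptor best known from stem cells and the placenta, showed the largest difference of the 10 genes. Its deposited intensities were 170, 139 and 169 on the arrays of Salv CKO 1 and 181, 155 and 202 on those of Salv CKO 2, against 425, 405 and 466 in Control 1 and 362, 371 and 381 in Control 2. Every Salv CKO array thus lay below every Control array. Such a separation of all 12 arrays in this direction was seen for 3.35% of named genes.

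The level of Esrrb averaged 7.35 ± 0.076 in Salv CKO and 8.69 ± 0.040 in Control (SD, n = 2 each). The difference was -1.35 ± 0.21 (SE), or 0.393 times the Control level, with an interval at 95% from -1.89 to -0.80 and an adjusted p of 0.998 in limma over all probes. By its unadjusted p of 0.0018 the probe ranked 32 of 26423, and a difference at or below its own was found in 0.217% of the 10594 genes in the brighter 50% of probes. Within each group the samples were close, 0.11 apart in Salv CKO and 0.056 apart in Control, less than the pooled SD of 0.18 between technical arrays.

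The difference in Esrrb ran from -1.40 to -1.29 with any 1 sample left out. When all 12 arrays were entered with the sample as a random block, it passed in limma with an adjusted p of 0.0179. That fit takes its error in part from technical arrays, and over the other alternatives the adjusted p ran from 0.418 to 1. Esrrb was measured by 1 probe, so no other probe can be set beside it.

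Esrra, the estrogen-related receptor most tied to PGC-1 alpha in mitochondrial gene control, had levels of 10.05 and 9.996 in Salv CKO, against 10.48 and 10.05 in Control. Only Control 1 stood apart. The groups did not overlap, but Control 2 exceeded Salv CKO 1 by 0.0062, far less than the technical SD of 0.087. The difference of -0.24 ± 0.25 (SE, limma, adjusted p = 0.998) was -0.032 without Control 1.

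Esrrg, the estrogen-related receptor needed in mice for the heart's shift to oxidative fuel after birth, had another order of samples. Its level was 10.06 and 10.22 in Salv CKO, against 9.61 and 10.25 in Control. Control 1 was the lowest sample here, by 0.46, and the other 3 lay within 0.19 of each other. The difference was 0.21 ± 0.30 (SE, limma, adjusted p = 0.998), and it was -0.11 without Control 1.

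Ppara, the PPAR of fat-burning tissues such as heart and liver, had intensities of 312, 354 and 318 in Salv CKO 1 and 400, 346 and 413 in Salv CKO 2, against 616, 617 and 626 in Control 1 and 306, 283 and 329 in Control 2. Control 1 thus stood above the other 3 samples. As levels these were 8.54 and 8.37 in Salv CKO and 9.21 and 8.37 in Control, a difference of -0.34 ± 0.35 (SE, limma, adjusted p = 0.998). Without Control 1 the difference was 0.082. Salv CKO 2 and Control 2 were 0.0043 apart and could not be ordered.

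The dimmer probe 2 of Ppara had levels of 5.85 and 5.90 in Salv CKO, against 6.04 and 5.52 in Control. Control 1 was again highest and the groups overlapped. Its difference was 0.093 ± 0.27 (SE), so the 2 probes of Ppara disagreed in sign, and neither interval leaves out 0.

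Ppard, the PPAR found in most tissues, had levels of 6.23 and 6.58 in Salv CKO, against 6.79 and 6.41 in Control. The samples interleaved, and the difference was -0.19 ± 0.27 (SE, limma, adjusted p = 0.998). Leaving out Control 1 gave -0.0029, leaving out Salv CKO 1 gave -0.018 and leaving out Control 2 gave -0.38.

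Pparg, the receptor that drives the making of fat cells, was not measured above background. Its intensities were 2, 2 and 1 in Salv CKO 1 and 5, 0 and -2 in Salv CKO 2, against 0, -4 and 6 in Control 1 and 1, -1 and -3 in Control 2. The probe stood at or below 0 on 2 of 6 Salv CKO arrays and 4 of 6 Control arrays, and its mean brightness lay at percentile 1.70 of all probes. No level or difference of Pparg is read from it, although its fitted difference of 0.37 is counted among the 4 positive ones above. Fat cell genes were nonetheless present in the same samples, with Ucp1, the uncoupling protein of brown fat, at levels of 11.95 and 9.75 in Salv CKO and 12.71 and 11.74 in Control.

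Rxra, a retinoid X receptor that can pair with the PPARs, was the only one of the 10 genes by brightest probe that was higher in Salv CKO without overlap. Probe 1 had levels of 10.15 and 10.01 in Salv CKO, against 9.85 and 9.69 in Control, and its 12 arrays separated by label after normalization (2.58% of named genes did so in this direction). Probe 2 had levels of 9.68 and 9.57 in Salv CKO, against 9.46 and 9.47 in Control. Both probes thus ran the same way without overlap of samples. The differences were 0.31 ± 0.22 for probe 1 and 0.16 ± 0.21 for probe 2 (SE, limma, adjusted p = 0.998 each), with intervals at 95% from -0.26 to 0.88 and from -0.39 to 0.71. With arrays centred on their medians the difference of probe 1 was 0.13 and that of probe 2 was -0.0042.

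Ppargc1a, the PGC-1 gene induced by cold, exercise and fasting, varied most after Esrrb. Its intensities were 270, 315 and 270 in Salv CKO 1 and 529, 603 and 636 in Salv CKO 2, against 809, 859 and 852 in Control 1 and 414, 356 and 420 in Control 2. The groups overlapped, since Salv CKO 2 lay above Control 2. As levels the 4 samples spanned 1.31, a span reached by 4.78% of genes in the brighter 50%, while the technical SD was 0.12. The mean level was 8.64 ± 0.46 in Salv CKO and 9.19 ± 0.62 in Control (SD, n = 2 each). The difference of -0.55 ± 0.41 (SE, limma, adjusted p = 0.998) was -0.12 without Control 1 or, when Control 2 was left out instead, -0.99.

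Ppargc1b, which encodes PGC-1 beta, was the steadiest of the regulators after Rxra probe 2. Its levels were 10.75 and 10.39 in Salv CKO, against 10.56 and 10.50 in Control. Both Control samples lay between the Salv CKO samples. The difference of 0.037 ± 0.24 (SE, limma, adjusted p = 1.00) had an interval at 95% from -0.59 to 0.66, and was -0.14 without Salv CKO 1.

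**Figure D2:**
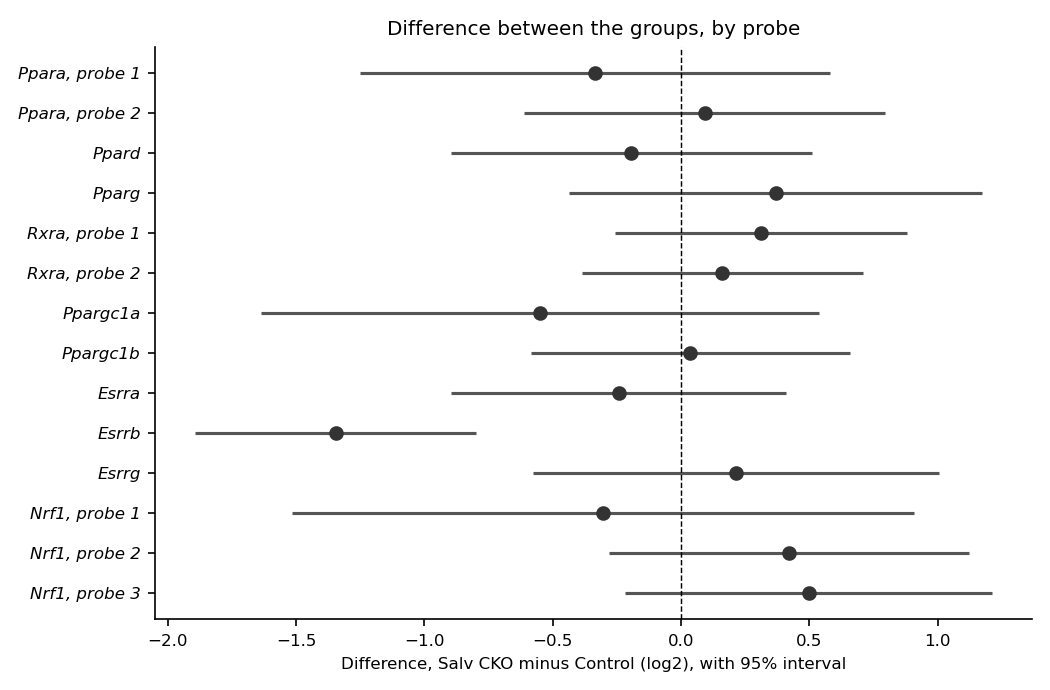
Difference of each probe, Salv CKO minus Control on the log2 scale (points), with its 95% interval from limma before any adjustment (lines), in the order receptors, partner, coactivators, estrogen-related receptors and Nrf1. The interval of Esrrb, -1.89 to -0.80, is the only one of 14 that does not reach 0, and Pparg is a probe at background.

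Nrf1 had 3 probes, which disagreed. Probe 1 had levels of 5.91 and 6.54 in Salv CKO, against 7.07 and 5.99 in Control. Probe 2 had levels of 5.73 and 5.77 in Salv CKO, against 5.07 and 5.59 in Control, and probe 3 had 5.45 and 5.00 in Salv CKO, against 4.87 and 4.58 in Control. Control 1 was thus the highest sample by probe 1 and the lowest by probe 2. The differences were -0.30 ± 0.46, 0.42 ± 0.27 and 0.50 ± 0.27 (SE, limma, adjusted p = 0.998 each), and the mean over the probes was 0.20, of the other sign to probe 1. Without Control 1 the difference was 0.24 by probe 1 and 0.16 by probe 2.

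The name itself is ambiguous, because NRF1 is also an older synonym of Nfe2l1, a factor of the proteasome and oxidative stress response, in the RefSeq gene table. The array has a separate probe named Nfe2l1, with levels of 11.48 and 11.79 in Salv CKO, against 12.30 and 11.65 in Control. Its samples ran in the same order as those of Nrf1 probe 1, with Control 1 highest, then Salv CKO 2, Control 2 and Salv CKO 1. Which transcript each probe named NRF1 detects was not tested, as no probe sequence was used here.

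That order, which crosses the labels, was shared by Ppard, Ppargc1a and Nrf1 probe 1, and by Sav1. Its last step, Control 2 above Salv CKO 1, was 0.077 in Nrf1 probe 1, below the technical SD of 0.14. In Sav1 the levels of that step were 8.08 and 8.06. The full order was found in 3 of the 9 regulators in the brighter 50% of probes, beside 13.6% of all genes there. Control 1 was the highest sample for 6 of these 9, beside 41.3% of all such genes, and Salv CKO 2 for 0, beside 16.8%. Esrrb is among those 6, although its Control 1 exceeded Control 2 by 0.056 only, less than its technical SD of 0.18. A span over 0.5 between samples was seen for 6 of the 9, beside 42% of such genes. These shares were looked at after the values were seen and carry no test.

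**Figure D3:**
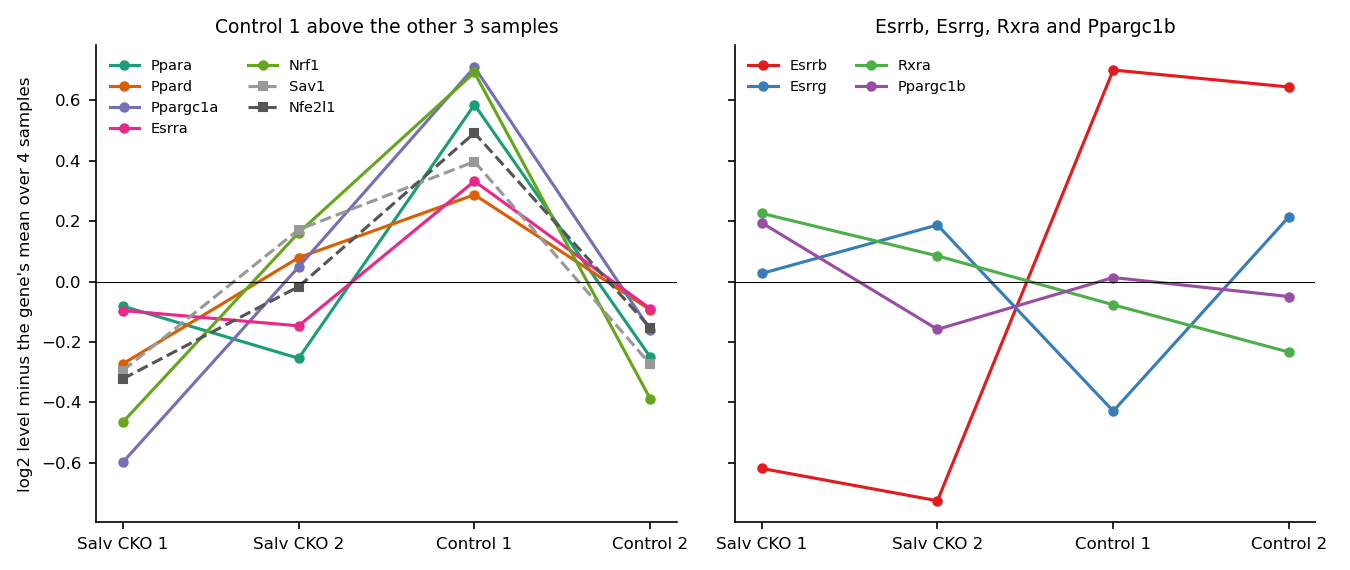
Level of the brightest probe of each gene in each of the 4 samples (x axis), as log2 level minus the gene's own mean over the samples (y axis). On the left, Ppara, Ppard, Ppargc1a, Esrra and Nrf1 are drawn with Sav1 and Nfe2l1 (dashed), all highest in Control 1. On the right, Esrrb is low in both Salv CKO samples, Esrrg is lowest in Control 1, and Rxra and Ppargc1b vary less. Lines only join the points of a gene.

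Genes with the most similar profile were sought for each regulator in the brighter 50% of probes whose samples spanned more than 0.5. Likeness was the root mean square difference of mean-centred log2 levels over the 4 samples, among 10593 genes. The nearest to Esrrb were Scgb1c1, a secretoglobin gene, at 0.10, Ubxn10 at 0.13, and Abca4, a transporter of the retina, at 0.14. Scgb1c1 had levels of 9.62 and 9.43 in Salv CKO, against 11.02 and 11.08 in Control. The nearest genes to the other regulators lay closer. Nearest to Ppargc1a was Smarcc2 at 0.037 and nearest to Ppara was Pik3cd, also at 0.037. For Ppard it was Fam189b at 0.0070, for Esrrg the activin receptor gene Acvr2a at 0.015, and for Nrf1 probe 1 Tmem87a at 0.018. With 4 samples such likeness is a description only.

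Levels of fat cell markers were set beside those of the regulators, since Ppargc1a is also a gene of brown fat. After quantile normalization, the summed intensity over the 13 fat cell markers was 21627 and 16823 in Salv CKO, against 28068 and 23443 in Control. Fabp4 was the brightest marker and weighed most in the sum, with levels of 13.66 and 13.61 in Salv CKO, against 13.91 and 13.79 in Control. The sum thus need not follow the fainter markers. With each marker weighed alike, the median of mean-centred levels was 0.061 and -0.39 in Salv CKO, against 0.49 and 0.20 in Control. Of these markers 11 were lower in Salv CKO by their means (median difference -0.47), and 8 were lower in Salv CKO without overlap, beside 16.5% of all named genes. Another 2, Lep and Lipe, were higher without overlap, beside 14.2%. All 12 arrays separated for 4 markers, lower in Salv CKO, beside 3.35% of all named genes. They were Cfd and Otop1, both dim, with differences of -1.80 and -1.59, Cidea (-0.47) and Fabp4 (-0.21). Lipe, a lipase gene, was the 1 marker separated in the other direction, beside 2.58%, and differed by 0.46. Adipoq, the adiponectin gene, had levels of 8.65 and 7.13 in Salv CKO, against 9.05 and 8.66 in Control. After normalization, the fat marker sum was lowest in Salv CKO 2 and Ppargc1a in Salv CKO 1. Both were highest in Control 1. Deposited intensities of Fabp4 ran the other way between the Salv CKO samples, averaging 10843 in Salv CKO 1 and 14358 in Salv CKO 2. Elovl3, counted above as lower without overlap, was dim in all samples, at levels from 1.90 to 2.30. The part of fat cells in the results for Ppargc1a and Esrrb was not tested.

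Sums for the other cell types are likewise of intensities after quantile normalization. The summed intensity of 7 measured heart muscle markers was 194742 and 195605 in Salv CKO, against 196933 and 206273 in Control. That of 8 endothelial markers was 17818 and 21173 in Salv CKO, against 22159 and 19137 in Control, the order of samples also seen for Ppargc1a. Their part in that result was not tested either. Macrophage markers summed to 7645 and 8039 in Salv CKO and to 7216 and 8173 in Control, and fibroblast markers to 81458 and 84999 in Salv CKO and to 82139 and 85217 in Control. Erythroid markers summed to 9092 and 13661 in Salv CKO, against 11002 and 5279 in Control. Markers of lung, liver and thymus summed to 1170 and 499 in Salv CKO, against 500 and 3052 in Control, with Control 2 the highest. The 3 skeletal muscle markers measured were dim, with sums from 81.8 to 90.8. The part of these cells in the results for the regulators was not tested.

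Among other nuclear receptors, 8 of 22 measured genes were higher in Salv CKO by their means and 14 lower (median difference -0.070). In limma 0 passed (smallest adjusted p = 0.998), and 1 had an unadjusted p under 0.05, beside 3.32% of all named genes. Without overlap, 9 were lower and 1 was higher, beside 16.5% lower and 14.2% higher over all named genes. For 3 of those lower, Nr1d1, Vdr and Rxrg, all 12 arrays separated, lower in Salv CKO, beside 3.35% of all named genes. Rxrg, the retinoid X receptor of muscle, had levels of 8.83 and 8.93 in Salv CKO, against 9.50 and 9.25 in Control, a difference of -0.50 ± 0.22 (SE, limma, adjusted p = 0.998). It thus ran opposite to Rxra, and the third of the family, Rxrb, differed by -0.090. Nr1d1, a receptor that represses clock genes, differed by -0.76 ± 0.22, Vdr, the vitamin D receptor, by -0.66 ± 0.28 and Nr2f1 by -0.57 ± 0.31. Without Control 1, Vdr differed by -0.37 and Nr2f1 by -0.25.

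Of the coactivators, corepressors and upstream regulators, 26 were measured and 11 were higher in Salv CKO by their means (median difference -0.074). In limma 0 passed (smallest adjusted p = 0.998), and 1 had an unadjusted p under 0.05, beside 3.32% of all named genes. That gene was Crebbp, a dim probe with levels of 3.57 and 3.39 in Salv CKO, against 2.64 and 2.77 in Control. Without overlap, 6 of the list were lower and 3 higher, near the 16.5% and 14.2% of all named genes. Perm1, a muscle gene induced by PGC-1 and ERR that feeds back on both, had levels of 12.45 and 12.26 in Salv CKO, against 12.72 and 12.59 in Control. All of its 12 arrays separated, lower in Salv CKO (3.35% of named genes), and its difference was -0.30 ± 0.22 (SE, limma, adjusted p = 0.998). Pprc1, the third member of the PGC-1 family, had levels of 6.64 and 6.96 in Salv CKO, against 7.70 and 6.96 in Control. Control 1 again stood apart, and without it the difference of -0.53 became -0.16. The steroid receptor coactivator gene Ncoa3 differed by -0.46 and the corepressor gene Nrip1 by -0.31, which without Control 1 were -0.14 for Ncoa3 and -0.17 for Nrip1.

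Of 24 PPAR target genes measured, 7 were higher in Salv CKO by their means and 17 lower (median difference -0.082). In limma 0 passed (smallest adjusted p = 0.998), and 0 had an unadjusted p under 0.05, beside 3.32% of all named genes. Without overlap, 9 were lower and 1 higher, beside 16.5% lower and 14.2% higher over all named genes. The median was -0.15 without Control 1 and -0.027 without Control 2. Plin5, which coats lipid droplets at mitochondria, had levels of 9.75 and 9.98 in Salv CKO, against 10.38 and 10.43 in Control, a difference of -0.54 ± 0.22 (SE). Angptl4, an inhibitor of lipoprotein lipase, had levels of 10.44 and 10.28 in Salv CKO, against 10.87 and 11.82 in Control, and its difference of -0.98 ± 0.38 was -0.51 without Control 2. All 12 arrays separated for 4 of the list, lower in Salv CKO, beside 3.35% of all named genes. They were Plin5, Angptl4, the fatty acid oxidation gene Acadvl, with a difference of -0.16, and Acot2, a mitochondrial acyl-CoA thioesterase, with a difference of -0.35 ± 0.21. In Cpt2, of the carnitine shuttle, the difference of 1.32 rested on 1 array of Control 1 at an intensity of 42, where its other arrays read 20598 and 20668, and it was -0.16 when technical arrays were summarised by their median.

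Of 26 ERR target genes measured, 15 were higher in Salv CKO by their means and 11 lower (median difference 0.017). In limma 0 passed (smallest adjusted p = 0.998), and 0 had an unadjusted p under 0.05, beside 3.32% of all named genes. Without overlap, 4 were lower, Esrra and Perm1 among them, and 3 were higher, beside 16.5% lower and 14.2% higher over all named genes. Ndufs1, a subunit of respiratory complex I, had levels of 12.65 and 12.65 in Salv CKO, against 12.39 and 12.39 in Control. All of its arrays separated, higher in Salv CKO, beside 2.58% of all named genes. Its difference was 0.26 ± 0.20 (SE, limma, adjusted p = 0.998), and 0.015 with arrays centred on their medians. Pdk4, which blocks glucose oxidation and is a target of PPARs and ERRs alike, had levels of 11.69 and 12.46 in Salv CKO, against 11.83 and 13.59 in Control, with overlap. The difference of -1.10 in Idh3g rested mainly on 1 array of Salv CKO 1 at an intensity of 18, and was 0.017 by the median of its arrays. Idh3g was also low on 1 array of Control 1, at 8303 against 17619 and 19380. In Control 2 it was low on 1 array, at 4496 against 20152 and 19315.

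Genes that work with NRF1 and express the mitochondrial genome numbered 21 measured, of which 8 were higher in Salv CKO by their means and 13 lower (median difference -0.082). In limma 0 passed (smallest adjusted p = 0.998), and 1 had an unadjusted p under 0.05, beside 3.32% of all named genes. That gene was Tfb1m, a methyltransferase of mitochondrial ribosomal RNA. Its dim probe had levels of 4.71 and 4.45 in Salv CKO, against 3.75 and 3.91 in Control. Without overlap, 5 of the list were higher and 4 lower, beside 14.2% higher and 16.5% lower over all named genes. Gabpb1, which with Gabpa forms the factor NRF2, had levels of 9.26 and 9.29 in Salv CKO, against 8.90 and 8.86 in Control. All of its arrays separated, higher in Salv CKO, beside 2.58% of all named genes. Its difference was 0.39 ± 0.20, beside 0.30 in Gabpa. Twnk, the helicase of mitochondrial DNA, had levels of 9.01 and 8.97 in Salv CKO, against 9.30 and 9.31 in Control, a difference of -0.32 ± 0.20. Its arrays separated too, lower in Salv CKO, beside 3.35% of all named genes. Tomm34 differed by 0.34, and Surf1, an assembly factor of cytochrome oxidase, by 0.51. Without Control 1 they were 0.19 for Tomm34 and 0.099 for Surf1. Tfam, the packaging factor of mitochondrial DNA, differed by -0.18, with overlapping samples.

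**Figure D4:**
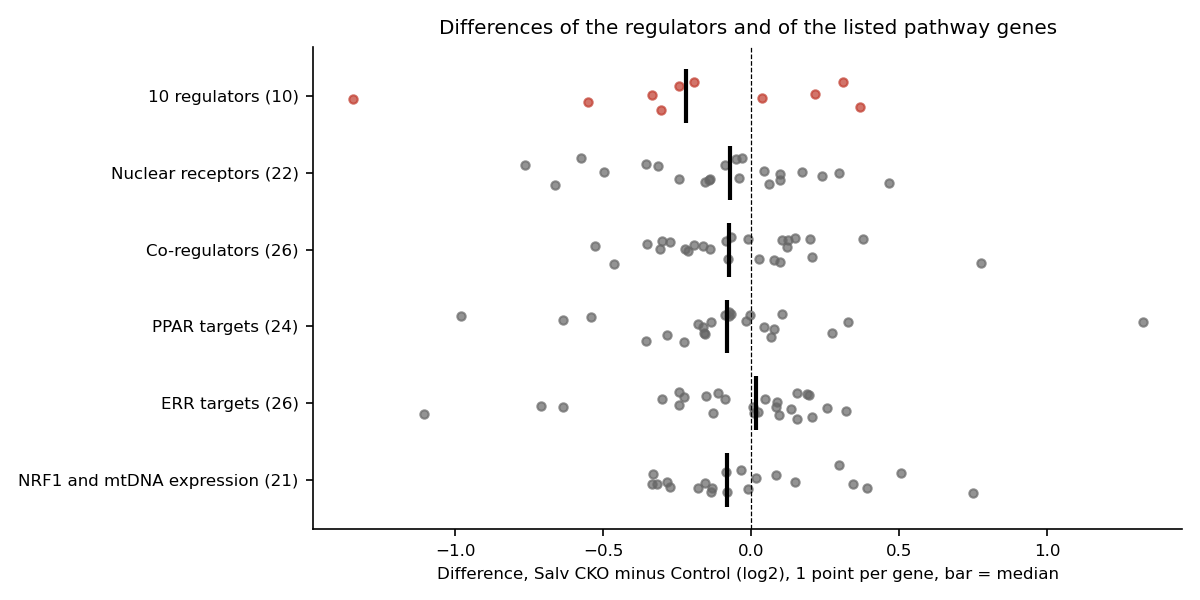
Difference of each gene, Salv CKO minus Control on the log2 scale (x axis), for the 10 regulators and for the 5 lists of related genes, with the number measured in brackets and bars at the median. The medians lie between -0.22 for the regulators and 0.017 for ERR targets, and Esrrb, at -1.35, is the leftmost point. The points at 1.32 (Cpt2) and -1.10 (Idh3g) each rest mainly on 1 array, and Idh3g was also low on 1 array of each Control sample.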

How the data were processed

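Total RNA of 4 biological samples was amplified, coupled to Cy5 and hybridised as 1 sample per array, per the labels' protocols. The deposited values are intensities, whole numbers from -10 to 65474, and values below 0 show that a background was subtracted. How the authors scanned the arrays, corrected background and scaled the values is not stated in the sources used here. Array medians ran from 58 to 88, so the 12 arrays were quantile normalized (limma 3.58.1, R 4.3.3), negative values were replaced by 0.0833, the smallest one above 0, and log2(value + 1) was used, which understates changes of dim probes. Each sample's 3 technical arrays were averaged. Differences were fitted over all 26423 probes with lmFit and eBayes (2 residual and 2.60 prior degrees of freedom) and adjusted by the Benjamini-Hochberg method at a threshold of 0.05. The number of arrays and samples, not a read depth, limits the precision. The p-values, standard errors and intervals rest on the spread between these samples, with each probe's variance drawn towards one estimated over all probes. A probe whose samples lie close, such as that of Esrrb, thus has a standard error larger than its own spread would give. The origin of the samples is not detailed by the labels.

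Probes were named from the platform annotation, with 18213 symbols matched directly and 2126 by synonym in the RefSeq table of GRCm38.p6. For each gene, the brightest probe over the arrays was used. The genes and lists were chosen with earlier results of these data known. All 10 regulators are named. Each of the 5 lists of related genes gave its 4 genes of smallest p in the brighter 50% of probes. Rxrb, Crebbp, Gabpa, Tfam, Tfb1m, Pdk4, Acadvl, Elovl3, Lep, Lipe, Otop1, Cidea, Fabp4, Ckmt2, Dcn, Nfe2l1 and Pdgfra were added after their values were seen. The fit was tested on simulated data, in 5 runs. A simulated log2 difference of 1 was called in 1 of 500 cases (0.2%), and 1 of 2 in 60 of 500 (12%). With no simulated difference, 6 of 131115 were called. The fit thus missed most differences of these sizes, and a count of 0 calls does not show that they are absent. Same-numbered samples deviated from their group means with a correlation of -0.25 over all probes and -0.48 over the brighter 50%. With 2 samples a group, samples of different number thus deviated together to the same extent. Such a correlation cannot show how samples were paired by origin or handling, and the main fit was unpaired. Figures were drawn with matplotlib 3.10.9.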

Additional observations from a re-analysis of the deposited data

How the results depend on the processing

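Alternatives covered the scaling of arrays, the pseudocount (16), filters on the dimmest 25% and 50% of probes, the median of technical arrays, all 12 arrays with the sample as a random block, the replicate block, the variance model, each sample left out and the mean over probes. Esrrb, which has 1 probe and so no mean over probes, kept its sign in the others (-1.43 to -1.25 with all samples). It passed in 1, the random block (-1.35, adjusted p = 0.0179 in limma). Over the whole array limma called 0 probes (1048 had an unadjusted p under 0.05), and the number was 61 with the random block, 2 with median centring and 14 without normalization, and stayed 0 with each sample left out. With the replicate block it was 0 (743 at unadjusted p under 0.05), and that block changed no call. A crossed pairing, chosen after seeing the data, also gave 0 (1545).

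With median centring, where the median of all probes is -0.078, Pparg became -0.031, Rxra probe 2 -0.0042 and Ppargc1b -0.15. The list medians were then -0.19 for nuclear receptors, -0.25 for PPAR targets, -0.17 for ERR targets and -0.18 for the NRF1 list. Without normalization, where the median of all probes is 0.11, Ppard became 0.0012, nuclear receptors -0.0027, coactivators 0.030 and the NRF1 list 0.0050. The median of technical arrays gave Cpt2 -0.16, Idh3g 0.017 and nuclear receptors -0.11, and without the dimmest 50% the last was -0.11 as well. The mean over probes gave Nrf1 0.20.

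With 1 sample left out, ranges were -0.75 to 0.082 for Ppara probe 1, -0.17 to 0.35 for its probe 2, -0.38 to -0.0029 for Ppard, -0.14 to 0.21 for Ppargc1b, -0.11 to 0.54 for Esrrg, -0.84 to 0.24 for Nrf1 probe 1, -0.46 to 0.21 for Sav1, -0.033 to 2.68 for Cpt2 and -2.76 to 0.55 for Idh3g. List medians ran from -0.17 to -0.084 for nuclear receptors, -0.29 to 0.074 for coactivators, -0.15 to -0.027 for PPAR targets, -0.0034 to 0.047 for ERR targets and -0.065 to 0.044 for the NRF1 list. Apart from the 12 arrays and Cpt2 and Idh3g, the cause of these shifts was not tested.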

Other observations

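The fibroblast marker list held a gene whose samples fell far apart across the labels. Pdgfra, a receptor of platelet-derived growth factor, had deposited intensities of 1, -2 and 3 in Salv CKO 1 but 2007, 1925 and 2069 in Salv CKO 2. In Control 1 they were 1, 4 and 7, and in Control 2 they were 1497, 17 and 1610. Dcn, the decorin gene of the same list, had levels between 15.22 and 15.28 in all 4 samples.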
